A study of Mus musculus with 16 samples.

Results

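The samples described here are livers of 6 male mice whose genotype entry is fl/fl | +/wt, called Cre livers below: 3 mice of 3 weeks and 3 of 6 weeks, out of 16 mice in the series. They were chosen by that genotype entry and by age, with no measured value involved, and all 17313 named genes that passed the filter on dim probes were tested. The series set mice with a liver-directed loss of Cdh1 against littermates at 1, 3 and 6 weeks. All 16 mice carry 2 floxed Cdh1 alleles (fl/fl), and the comparison mice, whose entry has wt/wt in place of +/wt, are called controls below, with 3 mice at each of the 2 ages used here. The transgene is entered as cdh1albcre for every sample, and the labels do not describe its promoter further. No group has the Cre transgene with intact Cdh1, so effects of Cre itself and of Cdh1 loss cannot be told apart. Chow was withdrawn for 6 hours before a central piece of the left lobe was taken, and the mice of different ages are different, unpaired animals. No date of birth in the labels is shared by 3-week and 6-week mice, so age and birth cohort cannot be told apart.

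Cdh1 encodes E-cadherin, the calcium-dependent adhesion protein that joins epithelial cells side by side. In the liver it is found on hepatocytes around the portal tracts and on bile duct cells, and ducts lie in a portal sleeve of collagen and other matrix made largely by fibroblasts and stellate cells. Between weaning and sexual maturity a male mouse liver stops most of its growth by cell division, silences fetal genes and takes on the male pattern of genes set by pulses of growth hormone. The 3 weeks to 6 weeks interval covers that period, and the question of the comparison was how far the depleted liver matures and whether its duct and matrix genes change at the same time.

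Each liver was measured on 1 single-colour array. A value below is the log2 of the array's processed signal minus the 75th percentile of that array, a log2 signal. A change is the 6-week mean minus the 3-week mean on that scale, given with the standard error of the limma fit. That error pools the spread within all 6 groups of the 16 arrays. Where the 3 and 3 mice compared disagree, it can understate their own spread. A gene is called when its limma p-value, adjusted over all 17313 genes, is under 0.05. On the 6 Cre arrays, at least 72.0% of spots were well above background and none were saturated, and 3 mice a group limits the precision. The hepatocyte genes Alb, Ttr, Apoa1 and Hnf4a were well above background in all 6 livers, with changes of 0.09, 0.13, -0.20 and -0.23, none called. Values for 3 mice are given in the order mouse 1, 2 and 3.

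Single livers stood apart from their group, each for different gene lists. The 6-week Cre mouse 2 was the lowest of the 3 mice of its group for 32.7% of all genes, but for 72.5% of the bile duct genes, 69.6% of the matrix genes, 78.9% of the cell cycle genes and 95.7% of the macrophage genes. It was the lowest for 0 of 20 general hepatocyte genes. At the same age, mouse 1 was the lowest for 87.1% of periportal and 80.0% of fatty acid oxidation genes, and mouse 3 for 80.0% of pericentral and 76.0% of cholesterol synthesis genes. At 3 weeks, mouse 1 was the lowest for 91.3% of interferon and 65.2% of matrix genes, and mouse 2 for 17 of 20 general hepatocyte genes and 80.6% of periportal genes. Results are therefore also given without a mouse where its removal moved them. Both ages were spread over the same 2 slides in the same way, with mice 1 and 2 on the first slide and mouse 3 on the second.

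The depleted gene was low at both ages. Cdh1 read -1.58, -2.56 and -0.60 in the 3-week Cre livers and -2.08, -2.33 and -1.79 in the 6-week Cre livers. The 3-week controls read 0.69, 0.59 and 0.76 and the 6-week controls 1.00, 0.59 and 0.43, so every Cre liver lay below every control. The 2 Cre livers of 1 week, at 1.11 and 1.04, lay above these older controls. They are not set against controls of their own age here. From 3 to 6 weeks the change in Cre livers was -0.49 ± 0.35 (adjusted p = 0.33), with overlapping mice. It was -0.98 (adjusted p = 0.015) without 3-week mouse 2 and 0.00 without 3-week mouse 3, whose Cdh1 was the highest of the 6. Where the probe lies relative to the deleted part of the gene was not examined.

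Many genes changed with age in both genotypes. In Cre livers 4674 of 17313 genes were called (27.0%), 2441 higher at 6 weeks (14.1%) and 2233 lower (12.9%), and 1118 of them changed at least 2-fold, 543 up and 575 down. The median change over all genes was 0.03. Which direction held more calls turned with the scaling: median centring gave 1942 higher and 2347 lower, and quantile normalization 2069 higher and 2708 lower. Controls had 3831 calls (22.1%) over the same interval. Calls in both genotypes numbered 2514, which is 53.8% of the Cre calls and 65.6% of the control calls, and 2511 of them went the same way; the 2 sets of mice are separate animals fitted in 1 model. The 3 exceptions, named after their values were seen, were Maoa, which rose by 0.31 in Cre livers and changed by -0.41 in controls, Slc17a9 (0.52 and -0.34) and Adam18 (-0.33 and 0.28), and in none was the difference between genotypes called (adjusted p = 0.20, 0.15 and 0.24). Without 3-week mouse 3 there were 3078 Cre calls, 1618 higher and 1460 lower. Without 6-week mouse 2 there were 3177, 1449 of them lower, and 3034 of these were among the 4674.

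**Figure D1:**
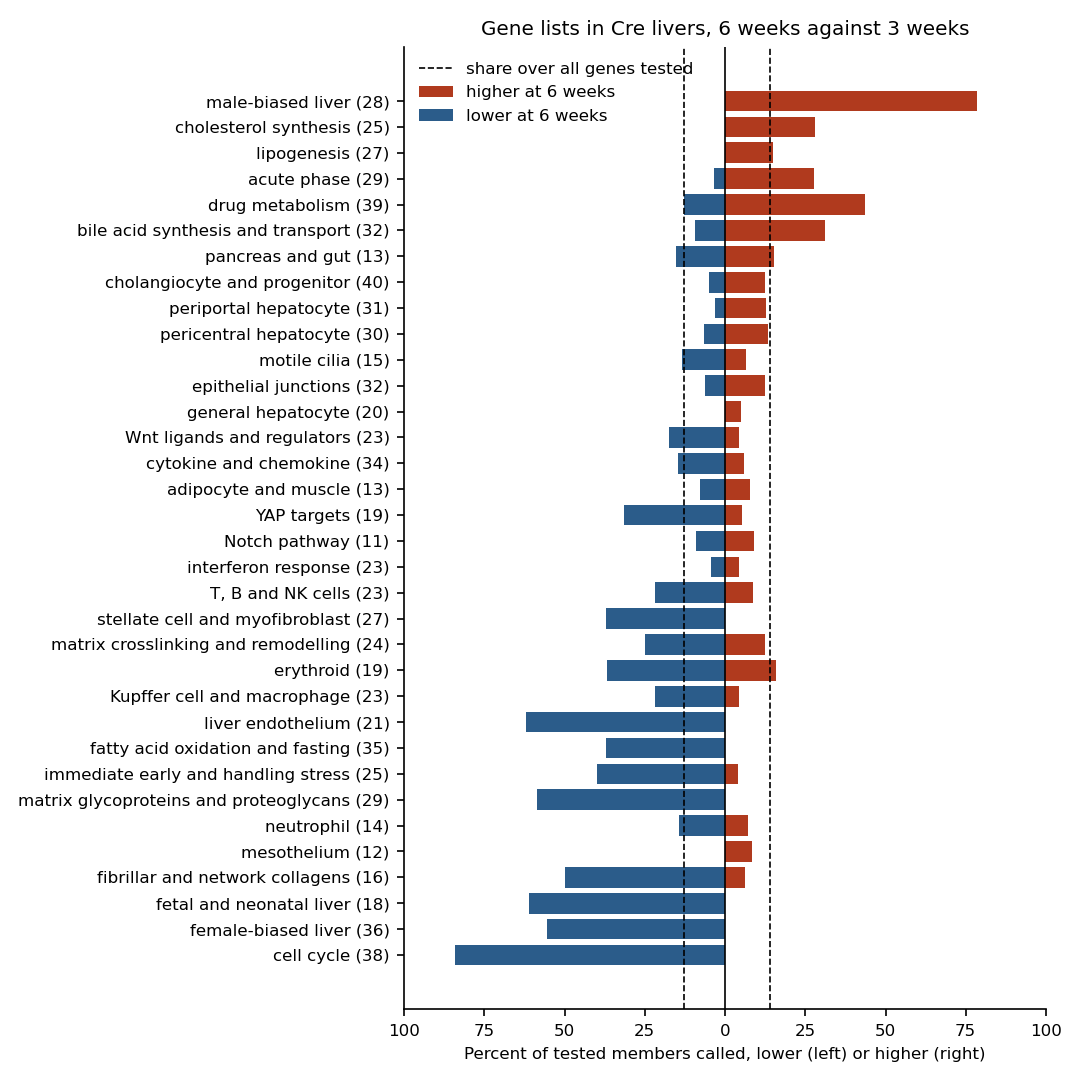
Percent of tested members of each gene list that were called higher (right, red) or lower (left, blue) at 6 weeks than at 3 weeks in Cre livers, with the number tested in brackets and the lists in order of their median change. The dashed lines mark the shares over all genes, 14.1% higher and 12.9% lower; male-biased genes stand farthest to the right and cell cycle genes farthest to the left.

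Male-biased genes rose. Of 28 male-biased liver genes tested, 22 rose and 0 fell from 3 to 6 weeks in Cre livers, with a median change of 2.86 against 0.03 for all genes. All 3 older mice read above all 3 younger ones for 24 of the 28, beside 20.1% of all genes. In controls 20 rose (9.75% of all genes did), with a median of 1.98. Cyp4a12a, a fatty acid hydroxylase of male liver, read -2.20, -2.24 and -2.98 at 3 weeks and 4.70, 4.88 and 4.13 at 6 weeks. All 3 older mice stood far above all 3 younger ones, a 132-fold rise (7.04 ± 0.40, adjusted p = 4.5e-07). C6, a complement protein of the membrane attack complex, rose from -0.05, 0.73 and 0.06 to 4.34, 4.01 and 4.10 (3.90 ± 0.22, adjusted p = 4.8e-07). Nudt7, a peroxisomal enzyme that cleaves coenzyme A, rose by 3.00 ± 0.31 (adjusted p = 6.7e-05).

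For some male-biased genes the 3-week Cre livers read below the 3-week controls. Hsd3b5, a steroid-metabolising enzyme of male liver, read -2.76, -0.92 and -3.76 in the 3-week Cre livers and 5.21, 5.94 and 3.02 in the 6-week ones, a rise of 7.21 ± 1.11 (adjusted p = 0.00081). Its 3-week controls read 1.45, 0.11 and 4.52, and its change there was 3.62. Serpina4-ps1, a transcribed serpin pseudogene, read -4.21, -1.39 and -5.47, then 3.19, 5.97 and 4.41, a rise of 8.22 ± 0.97 (adjusted p = 0.00016), against 3.19, 1.17 and 3.48, then 4.24, 4.43 and 5.62 in controls (change 2.15, adjusted p = 0.13). The difference between genotypes was not called for either gene (adjusted p = 0.58 and 0.25). By mouse, the median of the list was -0.25, 0.51 and -0.91 at 3 weeks and 4.09, 4.43 and 3.08 at 6 weeks in Cre livers, and 0.80, 0.24 and 2.76, then 4.24, 4.20 and 4.36, in controls. The controls of 3 weeks overlapped the Cre livers of that age, and 1 of them was well ahead.

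The largest rises by the fixed rule were mostly of this kind. They included 7 major urinary protein genes, which encode pheromone carriers that male liver secretes: Mup5, Mup2, Mup21, Mup19, Mup6, Mup18 and Mup20, with changes from 5.71 (Mup20) to 8.15 (Mup5). Mup5 read 0.03, 3.11 and -0.44 at 3 weeks, so mouse 2 was ahead of its group, and 9.05, 9.36 and 8.74 at 6 weeks. These genes are near-identical copies whose probes may share RNA, so the members are not independent. Nat8f5, an N-acetyltransferase family member, was not well above background in any 3-week Cre liver and read 2.45, 2.77 and 1.48 at 6 weeks, at least 264-fold higher (measured change 9.39, adjusted p = 4.7e-06). The probe of Pax2, a developmental transcription factor, gave the largest rise, from -2.50, -1.34 and -2.28 to 7.91, 8.88 and 6.24, whereas the gene's other probe changed by 0.00. The 2 Pax2 probes disagree, and the value belongs to the probe rather than to the gene.

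Female-biased genes fell over the same weeks. Of 36 tested, 20 fell and 0 rose, with a median change of -1.35; in controls 20 fell (12.4% of all genes did), with a median of -1.15. The 20 that were lower without overlap in Cre livers stand beside 18.1% of all genes. Hao2, a peroxisomal hydroxyacid oxidase, read 1.77, 2.27 and 2.05 at 3 weeks and was not well above background in any 6-week liver, at least 259-fold lower (measured change -8.52 ± 0.33, adjusted p = 4.9e-08).

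The sulfotransferase 2a genes, which sulfonate bile acids and steroids, gave the largest falls of all. Sult2a1 read 8.17, 8.11 and 8.12 at 3 weeks, among the most even values in the set, and was not well above background at 6 weeks. It was at least 17723-fold lower (measured change -14.73, adjusted p = 1.7e-07), and in controls the 3-week livers read 7.24, 8.17 and 4.65. Sult2a6 and Sult2a4 were at least 10195-fold and 9070-fold lower, and Sult2a3 at least 843-fold. Sult2a2 was above background in 1 of 3 older livers and changed by -13.05. The 5 genes share near-identical sequence, so their probes may read each other's RNA. Among the other largest falls were Hsd3b1 (at least 245-fold lower), the organic anion transporters Slc22a27 and Slc22a29, and the cytochromes Cyp2b13 (2.39, 3.41 and 2.98, then -3.74, -3.48 and -3.51) and Cyp3a44. Left without 6-week mouse 2, the comparison called 21 male-biased genes higher and 15 female-biased genes lower.

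**Figure D2:**
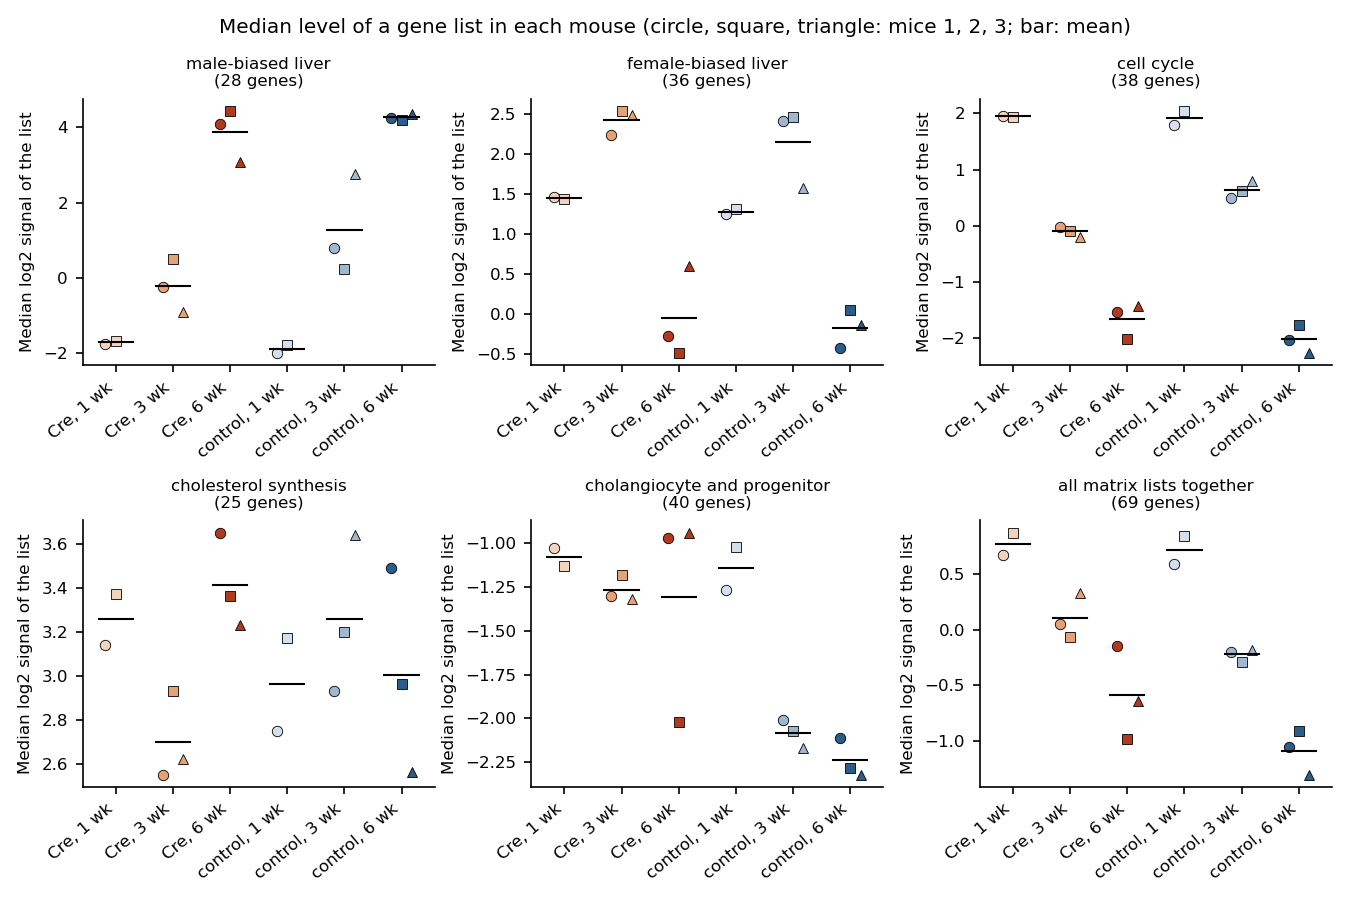
Median log2 signal of 6 gene lists in each mouse, by genotype and age; circles, squares and triangles are mice 1, 2 and 3 and bars are group means. Male-biased genes rise and female-biased and cell cycle genes fall from 3 to 6 weeks in both genotypes, while the 6-week Cre mouse 2 (square) lies apart from its group for the bile duct and matrix lists.

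Fetal liver genes fell too. Of 18 tested, 11 fell and 0 rose in Cre livers (median -1.33), and 11 fell in controls (median -1.43). Gpc3, a cell surface proteoglycan of fetal liver and liver cancer, read 0.20, 0.08 and 1.61 at 3 weeks and -3.50, -2.79 and -4.74 at 6 weeks (-4.30 ± 0.51, adjusted p = 0.00017). Igf2bp3, an RNA-binding protein of fetal tissue, fell by 2.53 ± 0.34 on the log2 scale (adjusted p = 0.00039). The imprinted genes Peg3 (-2.51 ± 0.37), Mest (-1.79 ± 0.29) and Meg3 (-1.36 ± 0.21) fell as well, as did Bex4 (-2.81 ± 0.33). The best known fetal liver genes of the list, Afp and Igf2, changed by 0.16 and 0.11 and were not called.

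Genes of cell division fell in both genotypes. Of 38 tested in Cre livers, 32 fell (84.2%) and 0 rose, with a median change of -1.43, while 34 fell in controls with a median of -2.57. The median of the list by mouse was -0.02, -0.09 and -0.19 at 3 weeks and -1.54, -2.01 and -1.43 at 6 weeks in Cre livers. In controls it was 0.49, 0.61 and 0.79, then -2.02, -1.77 and -2.26. The 3-week Cre livers thus lay below the 3-week controls, and the 6-week Cre livers overlapped or lay above the 6-week controls. The difference between the 2 changes was positive for 37 of 38 genes. Its unadjusted limma p was under 0.05 for 30 of them, beside 1442 of all 17313 genes. None was called over all genes (smallest adjusted p = 0.15). The share of all genes with a positive difference was not counted, so such sign counts, here and for lists below, have no background beside them.

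Ube2c, the ubiquitin-conjugating enzyme of the anaphase-promoting complex, read 0.35, -0.03 and 0.00 at 3 weeks and -1.76, -2.18 and -1.44 at 6 weeks. It fell 3.73-fold (-1.90 ± 0.20, adjusted p = 7.3e-05), and by 3.01 on the log2 scale in controls. Cdc20, an activator of that complex, read 1.04, 0.61 and 0.59, then -1.28, -1.49 and -0.82 (-1.94 ± 0.22), against a change of -3.58 in controls. Ccna2, the cyclin of DNA replication and entry into mitosis, went from 0.00, -0.10 and -0.15 to -2.04, -2.39 and -1.45 (-1.87 ± 0.19, adjusted p = 7.6e-05). In each of the 3 genes the groups did not overlap, and the 6-week mouse 2 was the lowest. The mitotic kinase Aurka fell by 2.15 and Top2a, which untangles DNA, by 2.14 on the log2 scale. Aurkb, the kinase of the chromosomal passenger complex, was not well above background in any 6-week liver, at least 3.39-fold lower. Of the 6 members not called, Ccne1, Ccnd1 and E2f1 act at the G1 to S step, with changes of 0.52, 0.23 and 0.22. With 6-week mouse 2 left out, 28 of 38 fell, with a median of -1.26; the median was -1.69 on slide 1 and -0.90 on slide 2.

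The CHR element, with the letters TTTGAA on either strand, is a known promoter element of genes expressed late in the cell cycle, so the promoters of the genes that fell together were searched for it. In the RefSeq promoter table (GRCm38.p6, 250 bases before to 50 after each start), it was found in 16 of the 26 cell cycle genes called lower that have an entry (61.5%), in 13.9% of the tested genes with an entry and in 18.1% of all entries. Over the whole cell cycle list, called or not, it was found in 16 of 30 genes with an entry (53.3%). Since 26 of these 30 genes are the ones called lower, the 2 shares cannot differ much and do not set called members apart from the list. A match is a run of letters, not a shown site. The stretches around it are printed 5′ to 3′ on the strand of the gene, in lower case with the element, or its reverse complement TTCAAA, in capitals. They lie at chr2:164769860-164769928 (+), chr4:118437344-118437401 (-), chr11:99024190-99024252 (-), chr19:37376323-37376381 (+) and chr10:69352913-69352967 (-), in the order listed.
Ube2c: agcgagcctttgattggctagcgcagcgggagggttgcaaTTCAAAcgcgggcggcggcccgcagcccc
Cdc20: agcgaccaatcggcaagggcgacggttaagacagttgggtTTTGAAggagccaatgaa
Top2a: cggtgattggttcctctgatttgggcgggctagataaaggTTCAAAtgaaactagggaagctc
Kif11: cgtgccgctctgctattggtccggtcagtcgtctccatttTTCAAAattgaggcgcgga
Cdk1: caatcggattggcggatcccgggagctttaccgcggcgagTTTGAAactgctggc
These 5 were chosen from the 6 of the 16 genes with a copy within 30 bases before the annotated start; it begins at -29, -18, -23, -19 and -15. In 5 other genes the nearest copy before the start begins at -167 to -70, and in the remaining 5 the letters lie after the start only. Kif11, a spindle motor, and Cdk1, the kinase that drives mitosis, changed by -1.70 and -1.40. For the sex-biased lists the STAT5 letters TTCNNNGAA, bound by the factor that carries the growth hormone signal, were searched in the same way. They were found in 1 of 14 male-biased genes called higher (7.14%) and 2 of 15 female-biased genes called lower (13.3%), beside 7.55% of tested genes.

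Few bile duct genes changed with age in Cre livers. Of 40 cholangiocyte and progenitor genes tested, 5 rose and 2 fell, near or under the shares for all genes, with a median change of 0.19. In controls 2 rose and 7 fell (median -0.12). The summed signal of the list, in units of the array's 75th percentile, was 124 to 151 in the 3-week and 147 to 224 in the 6-week Cre livers. Krt19, the keratin that marks duct cells, read -1.32, -1.03 and -1.20 at 3 weeks and -0.06, -1.96 and -0.61 at 6 weeks. Mouse 1 and mouse 3 lay above all 3 younger mice and mouse 2 below them, so the change was 0.31 ± 0.35 (adjusted p = 0.55). All 6 values lay above those of the controls, which were -2.03, -2.53 and -2.15, then -2.64, -2.59 and -2.99. Krt7, another duct keratin, read -3.61, -3.19 and -3.14, then -1.97, -3.47 and -3.15 (0.45 ± 0.38, adjusted p = 0.41). The duct adhesion protein Epcam read -3.96, -2.79 and -2.65, then -2.03, -3.75 and -2.57, with mouse 2 the lowest of the older mice but above 3-week mouse 1 (0.35 ± 0.45, adjusted p = 0.60). Sox9, a transcription factor of duct cells, read -1.25, -2.46 and -1.60 at 6 weeks (0.26 ± 0.25, adjusted p = 0.47). Spp1, the secreted matrix protein osteopontin, read 0.70, 1.84 and 2.26, then 3.00, 1.03 and 2.33 (0.52 ± 0.46, adjusted p = 0.43). Krt19, Krt7, Epcam and Sox9 are shown as defining markers of duct cells, and Spp1 was picked after its values were seen.

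The list members that rose included transporters and simple-epithelium keratins. Slc4a2, a chloride and bicarbonate exchanger, read 3.28, 3.22 and 3.33, then 4.37, 4.80 and 3.95 (2.14-fold, adjusted p = 0.00074). Its rise in controls, 1.05, was of the same size. Cftr, the chloride channel of duct secretion, read -1.28, -1.10 and -1.82, then -0.71, -0.22 and -0.44 (0.94 ± 0.24, adjusted p = 0.013), and 0.91 in controls; its call was lost without 3-week mouse 3 or 6-week mouse 2. Both genes were thus higher at 6 weeks in both genotypes. The keratin Krt8, which hepatocytes also make, read 2.55, 3.25 and 3.50, then 4.51, 3.71 and 3.81 (0.91 ± 0.27, adjusted p = 0.027), against a change of 0.20 in controls, and its call was lost without mouse 1 of either age. Its partner Krt18 rose by 0.63 ± 0.22 (adjusted p = 0.048), a call lost under 22 of 29 other settings.

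The members that fell were Itga6, the laminin receptor subunit (-0.78 ± 0.20, adjusted p = 0.015), and Lamb3, a laminin chain (-1.34 ± 0.40, adjusted p = 0.025, a call lost when any 1 of 4 Cre mice was left out). Itga6 read 0.62, 0.86 and 0.79, then 0.29, -0.54 and 0.19, and its fall in controls was 1.11 on the log2 scale. No member had a called difference between genotypes (smallest adjusted p = 0.47). Of the 40 differences 30 were positive, and 4 had an unadjusted limma p under 0.05, beside 1442 of all 17313 genes. Leaving out 6-week mouse 2, the list gave 5 rises and 1 fall with a median of 0.37, without 3-week mouse 3 it gave 2 rises, and without 6-week mouse 1 the median was -0.01. In whole liver, a change in the number of duct cells and a change in RNA per duct cell cannot be told apart; this holds for every cell type below. Of 12 mesothelial genes, which share keratins with duct cells, 1 rose (Krt8) and 0 fell. Of the 12 changes 9 were negative (median -0.79). The summed signal, which includes Krt8, was 13.9 to 21.8 at 3 weeks and 17.4 to 32.1 at 6 weeks. The mesothelial markers Msln and Upk3b changed by -1.51 (adjusted p = 0.099) and -2.39 (adjusted p = 0.13), neither called. Upk3b was above background in 2 of 3 older livers, and the part of mesothelial cells in the duct values was not tested.

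**Figure D3:**
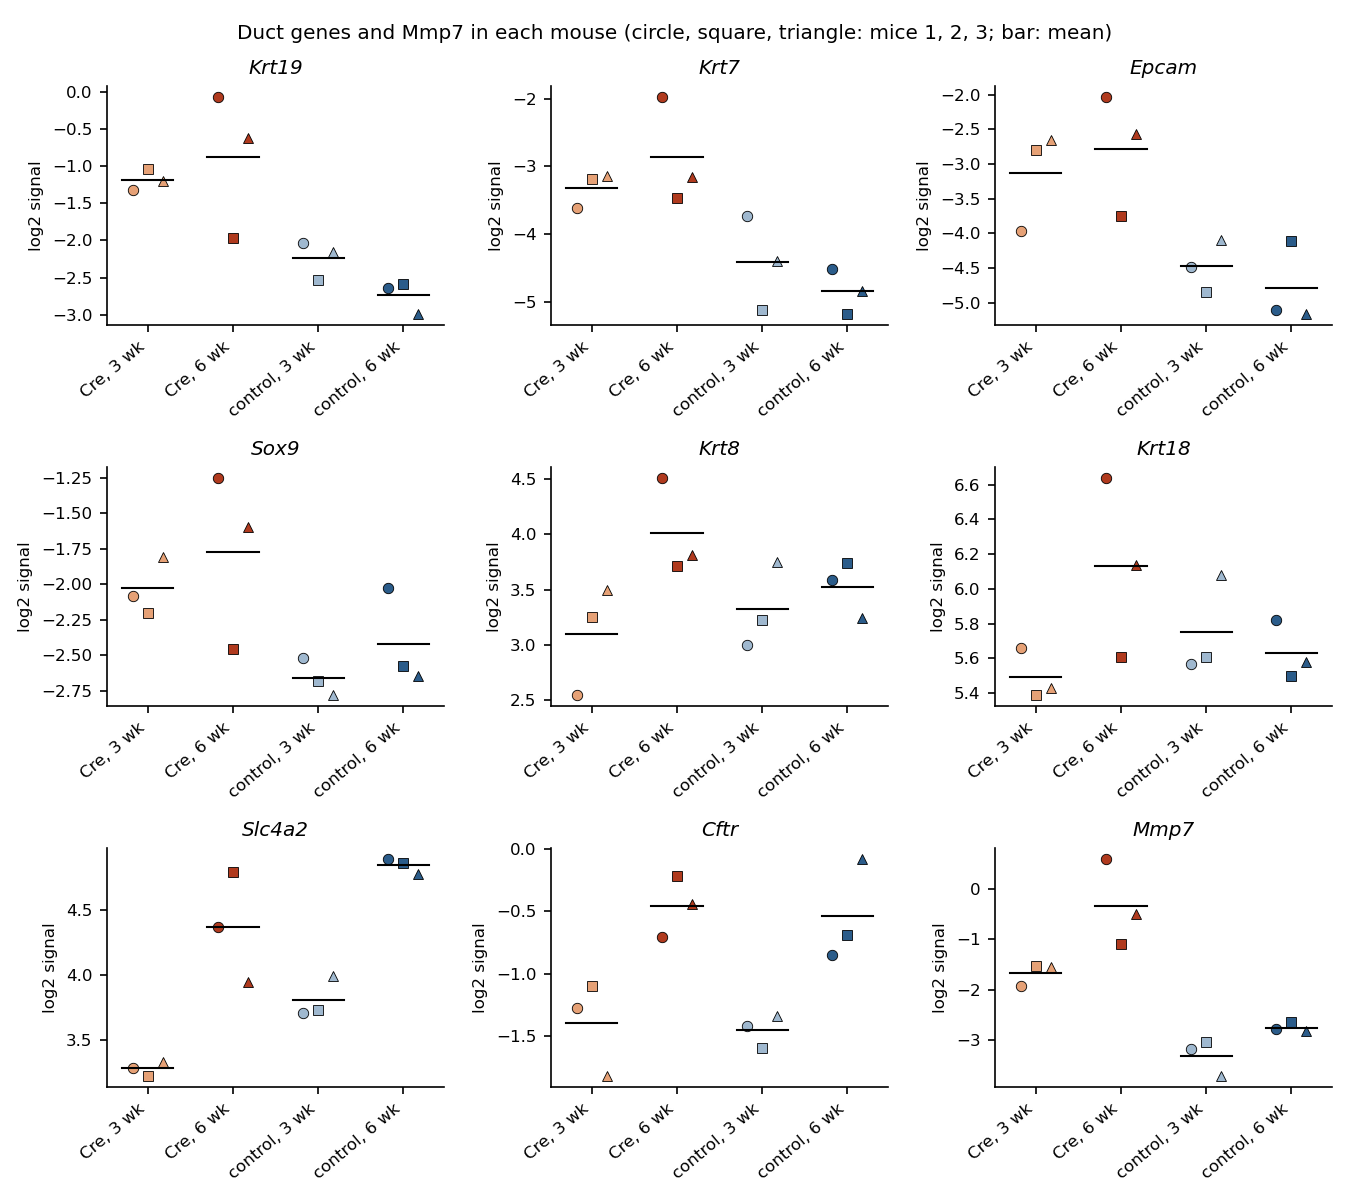
Log2 signal of 8 duct genes and the protease Mmp7 in each Cre and control mouse of 3 and 6 weeks; circles, squares and triangles are mice 1, 2 and 3 and bars are group means. For Krt19, Krt7, Epcam and Sox9 the 6-week Cre mice spread widely with mouse 2 (square) lowest, whereas for Slc4a2 and Cftr all 3 older mice lie above the younger ones.

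Neighbouring lists of the duct and its junctions changed little. Of 11 Notch pathway genes, 1 rose and 1 fell. The receptor Notch1 rose by 1.14 ± 0.30 (adjusted p = 0.015), but its other probe changed by -0.06, and its target Hes1 fell by 0.95 ± 0.32 on the log2 scale (adjusted p = 0.042). Both calls were lost without 3-week mouse 3 or 6-week mouse 2. Of 32 epithelial junction genes, 4 rose and 2 fell, with a median of 0.10. The tight junction protein Tjp3 read 1.16, 1.30 and 1.35, then 2.31, 1.78 and 2.11 (0.80 ± 0.16, adjusted p = 0.0037). Gjb1, the main hepatocyte gap junction protein, rose by 0.53 ± 0.13, and Ctnna1, which links E-cadherin to actin, by 0.38 ± 0.11. Cldn3, a tight junction claudin, rose by 0.41 ± 0.13, a call lost under 10 of 29 other settings. The desmosomal cadherin Dsc2 fell by 0.72 ± 0.12 on the log2 scale (adjusted p = 0.0016), and Gja1, another gap junction protein, by 0.53, a call lost under 19 of 29 other settings. Without 3-week mouse 3, 1 junction gene was called higher. The beta-catenin gene Ctnnb1 and the other classical cadherin Cdh2 were not called (0.07 and -0.19).

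Matrix genes fell with age in Cre livers, as in controls. Of 69 matrix genes tested in 3 lists, 31 fell and 4 rose (50.7% called, against 27.0% of all genes), with a median change of -0.66; in controls 37 fell and 1 rose, with a median of -0.91. The difference between the Cre and the control change was positive for 54 of 69 genes, though none was called (smallest adjusted p = 0.34). Its unadjusted limma p was under 0.05 for 5 of them, beside 1442 of all 17313 genes. The summed signal was 780 to 837 at 3 weeks and 463 to 541 at 6 weeks in Cre livers, and 668 to 696, then 422 to 459, in controls.

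Of 29 matrix glycoproteins and proteoglycans, 17 fell and 0 rose (median -0.71), and in controls 17 fell. Several of them, and 2 of the collagens, are basement membrane proteins. Col4a1, a chain of the network collagen of basement membranes, read 2.30, 2.57 and 2.92, then 1.46, 0.47 and 1.38 (2.82-fold lower, adjusted p = 0.00097). Its partner chain Col4a2 fell by 1.02 ± 0.20, and the laminin chains Lama2, Lamb1 and Lamc1 by 1.22, 1.16 and 1.08 on the log2 scale. Hspg2, the heparan sulfate proteoglycan perlecan, read 1.96, 2.00 and 2.16, then 1.48, 1.24 and 1.26, a small fall with little spread (-0.71 ± 0.11, adjusted p = 0.00078). Nid1, which bridges laminin and collagen networks, fell by 1.30 ± 0.25. In none of these genes did the 3-week and 6-week Cre mice overlap.

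Other genes of the same list encode secreted matrix proteins. Postn, a matricellular protein of growing and scarring tissue, read 1.65, 1.54 and 1.89, then -0.15, -0.89 and -0.30 (4.40-fold lower, adjusted p = 8.7e-05), with a change of -2.27 in controls. Sparc, a collagen-binding matricellular protein, went from 7.78, 7.52 and 7.66 to 6.44, 5.83 and 6.69 (-1.33 ± 0.20). The elastic fibre proteins Fbln5 and Eln fell by 1.40 and 1.06 on the log2 scale, though the call of Eln was lost without mouse 2 or mouse 3 of either age. Dcn, the collagen-binding proteoglycan decorin, read 6.17, 6.23 and 6.25, then 5.67, 5.64 and 5.58, the same small fall as in controls (-0.58 and -0.57). Fn1, fibronectin, which hepatocytes secrete, fell by 0.42 ± 0.09. The other 12 genes of the list were not called, among them the proteoglycans Bgn (-0.08) and Vcan (0.30), the fibulin Fbln1 (0.38) and tenascin Tnc (-0.11).

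The fibrillar collagens split the 6-week mice. Of 16 collagen genes 8 fell and 1 rose (median -1.0), and in controls 11 fell and 1 rose (median -1.17). Col3a1 read 4.12, 4.63 and 4.90 at 3 weeks and 3.87, 1.80 and 3.34 at 6 weeks (-1.55 ± 0.42, adjusted p = 0.016), against 4.05, 3.82 and 4.03, then 1.45, 1.73 and 0.90, in controls. All 3 older Cre mice lay above all 3 controls of their age, mouse 2 only slightly and mice 1 and 3 by more. Col1a2 followed the same order, with 4.04, 2.33 and 3.51 at 6 weeks (-1.17 ± 0.36, adjusted p = 0.030). Col1a1, the main chain of scar collagen and picked after its values were seen, read 3.40, 4.01 and 4.35, then 3.67, 1.29 and 2.73, with overlapping groups (-1.36 ± 0.49, adjusted p = 0.058), whereas its change in controls was -2.68 (adjusted p = 0.0024). The call of Col3a1 was lost without 3-week mouse 3, and that of Col1a2 without 3-week mouse 2 or 3 or 6-week mouse 2. Col5a3, a minor collagen chain, rose from -0.08, 0.56 and 0.03 to 2.10, 2.09 and 1.61 (3.40-fold, adjusted p = 0.00069) and by 1.55 in controls. With 6-week mouse 2 left out, 7 collagens fell and 2 rose, and over the 69 matrix genes 24 fell and 5 rose with a median of -0.57. The matrix median was -0.54 on slide 1 and -0.87 on slide 2.

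Among 24 genes that crosslink or cut matrix, 6 fell and 3 rose, and the 3 that rose were proteases. Mmp7, a matrix protease of epithelial cells, read -1.93, -1.53 and -1.56 at 3 weeks and 0.59, -1.10 and -0.50 at 6 weeks (2.53-fold, adjusted p = 0.0091). All 3 older mice lay above the younger ones, with mouse 1 the highest. Controls read -3.17, -3.05 and -3.71, then -2.78, -2.65 and -2.83 (change 0.56, adjusted p = 0.23), below every Cre liver, and the difference between the changes was not called (adjusted p = 0.70). Mmp19 rose from -1.95, -1.60 and -1.92 to -1.06, -0.98 and -0.94 (0.83 ± 0.17, adjusted p = 0.0040). Mmp9, a protease of macrophages and neutrophils, was above background in 1 of 3 younger and 2 of 3 older livers (0.82, adjusted p = 0.033, a call lost when any 1 of 4 Cre mice was left out). The protease inhibitor Timp1, picked after its values were seen, read -2.29, -0.93 and -1.37, then 0.05, -3.27 and -1.41, so the older mice spanned more than the younger ones and the change was -0.01 ± 0.59. Of the genes that fell, Adamts1, a protease of proteoglycans, read 0.84, 0.58 and 0.84, then -0.76, -0.87 and -0.68 (2.87-fold lower, adjusted p = 1.1e-05). The collagen crosslinker Loxl2 fell by 1.44 ± 0.21 and the collagen chaperone Serpinh1 by 1.04 ± 0.32 on the log2 scale, the latter a call lost without mouse 2 or mouse 3 of either age.

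**Figure D4:**
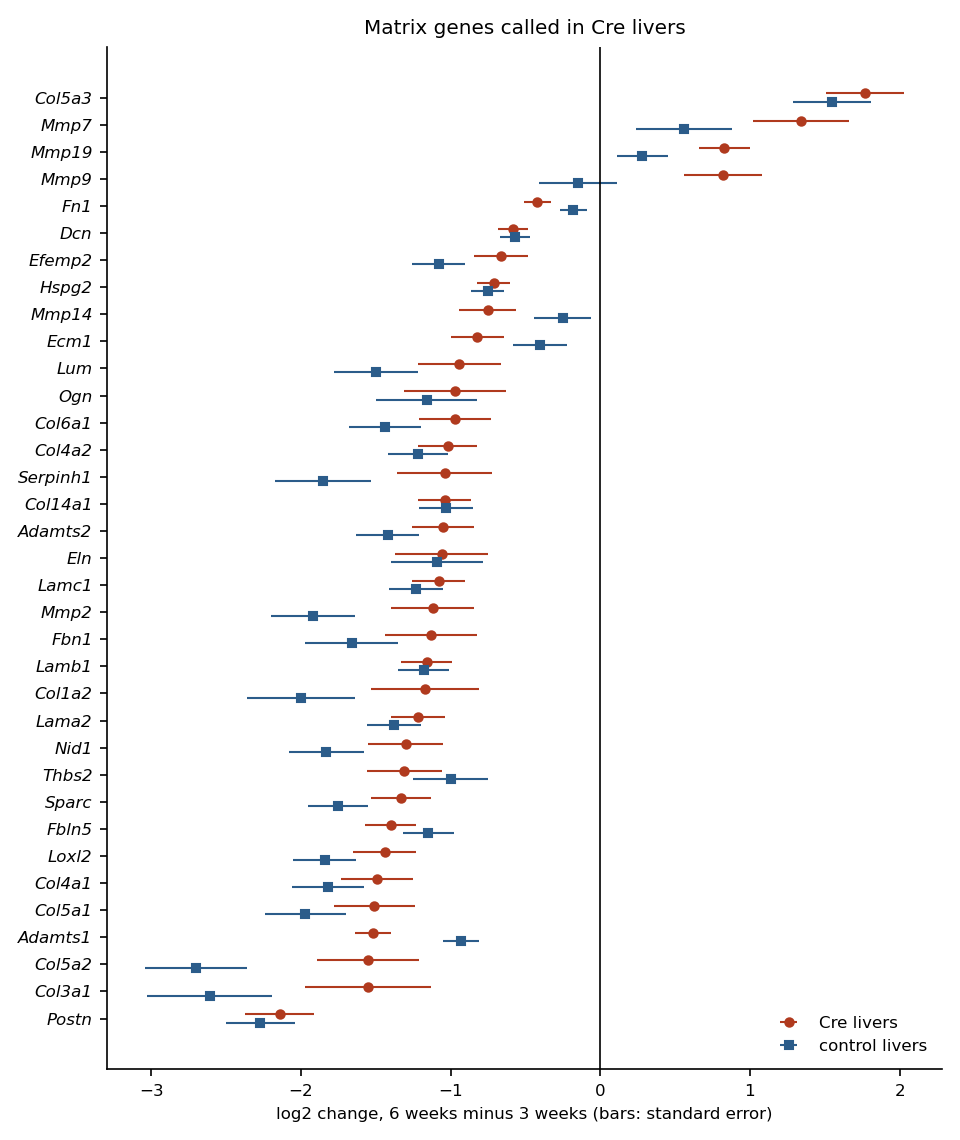
Log2 change from 3 to 6 weeks, with standard errors of the limma fit of all 16 arrays, of the matrix genes called in Cre livers. The change in controls is beside it. Col5a3 and the proteases Mmp7, Mmp19 and Mmp9 lie to the right of 0 in Cre livers and the other 31 genes to the left.

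Some markers of the cells that make matrix fell over the same weeks. Of 27 stellate cell and myofibroblast genes, 10 fell and 0 rose (37.0% called, median -0.35), and in controls 13 fell. Ecm1, among the 10, is also a member of the matrix lists. The growth factor receptor Pdgfra read 0.22, 0.32 and 0.52, then -0.85, -1.07 and -0.90 (-1.29 ± 0.14, adjusted p = 0.00011). Lhx2, a transcription factor of stellate cells, fell by 0.97 ± 0.12, and Reln, a stellate marker, by 1.19 ± 0.21 on the log2 scale. Of the 4 defining markers only Reln was called. The retinol-storing enzyme Lrat changed by 0.20, desmin (Des) by -0.35 and the receptor Pdgfrb by -0.52 (adjusted p = 0.06). The myofibroblast gene Acta2 changed by -0.20 and was not called. The summed signal was 109 to 121 at 3 weeks and 76.7 to 85.4 at 6 weeks, and all 4 defining markers were above background in all 6 livers. Then 5 fell and 1 rose without 6-week mouse 2; without 3-week mouse 2 or mouse 3, 6 fell. The part of these cells in the matrix values was not tested.

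Endothelial genes fell as well, and macrophage genes less evenly. Of 21 endothelial genes 13 fell and 0 rose in Cre livers (median -0.54), and 7 fell in controls (median -0.26). The scavenger receptor of sinusoid cells Stab2 read 4.70, 4.57 and 4.47, then 3.82, 3.73 and 3.71, with little spread (-0.83 ± 0.08, adjusted p = 5.4e-05). The growth factor receptor Flt1 fell by 0.76 ± 0.11, but Kdr, another receptor of that family, changed by 0.32 (adjusted p = 0.058) on 1 probe and by -0.61 on its other probe. Their summed signal was 143 to 151 at 3 weeks and at most 116 at 6 weeks. Of 23 Kupffer cell and macrophage genes, 5 fell and 1 rose (median -0.44). The share called, 26.1%, was near the 27.0% of all genes. The defining markers Adgre1 (-0.71, adjusted p = 0.054) and Csf1r (-0.19, with probes from -0.44 to 0.60) were not called. Clec4f, the Kupffer cell lectin, read 4.18, 4.62 and 4.32, then 4.03, 3.70 and 3.75 (-0.55 ± 0.14, adjusted p = 0.014), a call lost without 6-week mouse 2. The scavenger receptor Marco went from 4.58, 5.08 and 4.28 to 2.45, 2.27 and 3.51 (-1.90 ± 0.45, adjusted p = 0.0084). Their summed signal was 215 to 314 and then 147 to 196. Without 6-week mouse 2, 2 macrophage genes fell and 2 rose, and without 3-week mouse 1, 9 fell.

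Blood cell genes moved both ways. Of 19 erythroid genes 7 fell and 3 rose (52.6% called, beside 27.0% of all genes). The globins fell, with Hbb-bs at 4.77, 4.49 and 4.34, then 1.57, 1.86 and 2.99 (5.25-fold lower, adjusted p = 0.00080), while the haem synthesis enzyme Alas2 rose by 0.95 ± 0.27. Without 3-week mouse 3, 0 erythroid genes were called higher. Of 23 lymphocyte genes 5 fell and 2 rose (30.4% called, near the 27.0% of all genes). Without 3-week mouse 2, 2 fell and 5 rose, and without 3-week mouse 3, 7 fell. The T cell receptor chain Cd3e rose by 0.57 ± 0.12, and by 0.51 in controls. Jchain, of antibody-secreting cells, rose from -3.98, -2.62 and -3.96 to -1.55, -2.51 and -1.83 (adjusted p = 0.0084). The granzyme Gzmb fell by 1.97 ± 0.41 on the log2 scale, and Lck, Gzma and Klrb1c were also called lower. Neutrophil genes were uneven, with a median of -1.42 on slide 1 and 0.85 on slide 2.

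Genes of fat burning fell, and some genes of fat and sterol synthesis rose. None of the 35 fatty acid oxidation and fasting genes rose, and 13 fell (median -0.56); in controls 6 fell (median -0.29). Pdk4, the kinase that shuts off glucose oxidation in fasting, read 3.68, 3.16 and 3.64 at 3 weeks and -1.11, -1.02 and -0.74 at 6 weeks, 21.8-fold lower (adjusted p = 5.7e-06). The fasting hormone Fgf21 fell by 3.23 ± 0.58 (adjusted p = 0.0019) and the lipid droplet protein Plin2 by 1.47 ± 0.32 on the log2 scale. The thioesterase Acot3 read 3.94, 3.98 and 3.92, then 0.79, 0.75 and 1.08 (8.42-fold lower). For each of these 4 genes the groups did not overlap. In controls Pdk4, Fgf21 and Acot3 were called lower too (-3.15, -2.19 and -2.10), and Plin2 was not (-0.84).

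Of 27 lipogenic genes 4 rose and 0 fell (median 0.56), near the share for all genes. Scd1, the stearoyl-CoA desaturase, read 5.36, 3.97 and 6.01, then 7.74, 8.02 and 7.82 (6.72-fold, adjusted p = 0.0018). The fatty acid elongase Elovl6 rose from 0.63, 2.06 and 1.28 to 3.25, 3.42 and 3.42 (4.12-fold, adjusted p = 0.00078), while its controls read 2.72, 2.28 and 3.24, then 3.59, 3.38 and 3.25. The 3-week Cre livers lay below all controls and the 6-week ones reached them. Acss2, which makes acetyl-CoA from acetate, and the citrate carrier Slc25a1 rose by 1.5 and 0.72. Without 3-week mouse 2, 14 lipogenic genes were called higher.

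Of 25 cholesterol synthesis genes 7 rose and 0 fell in Cre livers (median 0.69), while in controls 0 rose and 1 fell (median -0.14). The difference of the changes was positive for 23 of 25 genes, a count with no all-gene share beside it. Its unadjusted limma p was under 0.05 for 12, beside 1442 of all 17313 genes, and none was called (smallest adjusted p = 0.34). Msmo1, a sterol demethylation enzyme, read 3.86, 4.24 and 3.81, then 6.19, 5.85 and 5.40 (3.60-fold, adjusted p = 0.0027), against 4.05, 4.90 and 5.46, then 6.04, 5.48 and 4.86, in controls. Acat2 read 3.23, 3.71 and 3.49, then 4.92, 4.78 and 4.57 (adjusted p = 0.00078). Sqle, the squalene epoxidase, rose by 1.12 ± 0.35 in Cre livers (adjusted p = 0.032) and changed by -0.45 in controls; its call was lost without mouse 1 of either age or 3-week mouse 3. By mouse the list's median was 2.55, 2.93 and 2.62, then 3.65, 3.36 and 3.23, in Cre livers, and 2.93, 3.20 and 3.64, then 3.49, 2.96 and 2.56, in controls, so the 6-week groups overlapped. Without 3-week mouse 3 or 6-week mouse 1, 3 genes were called higher.

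Bile acid and drug genes rose more often than they fell. Of 32 bile acid genes 10 rose and 3 fell, as in controls. Cyp7a1, the rate-limiting enzyme of bile acid synthesis, read 1.73, 2.97 and 1.87, then 4.00, 3.55 and 4.30 (3.39-fold, adjusted p = 0.0021). The bile acid transporter Slc10a2, known from ileum and bile duct, rose from -2.45, -2.65 and -3.85 to 1.83, 1.44 and 1.97 (26.6-fold, adjusted p = 7.1e-05), and by 2.88 in controls. Cyp39a1, a hydroxylase of oxysterols, fell by 1.96 ± 0.33 on the log2 scale. Of 39 drug metabolism genes 17 rose and 5 fell (56.4% called, beside 27.0% of all genes), and in controls 7 rose and 3 fell. Without 6-week mouse 1, 12 rose, and without 3-week mouse 3, 2 fell. Gstp1, a glutathione transferase, read 4.97, 4.95 and 5.27, then 7.89, 8.27 and 7.63 (7.30-fold, adjusted p = 4.8e-05). Ugt2b5, a glucuronosyltransferase, rose by 1.67 ± 0.10, and the female-biased Cyp2b9 fell by 4.62 ± 0.51 on the log2 scale. Zonation lists moved little: 4 of 30 pericentral genes rose and 2 fell, and 4 of 31 periportal genes rose and 1 fell. Cyp2f2, a periportal cytochrome, read 6.93, 7.04 and 6.04, then 8.35, 8.45 and 8.37 (3.28-fold, adjusted p = 0.0016).

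Genes of acute responses changed in both directions. Of 25 immediate early and handling stress genes 10 fell and 1 rose in Cre livers (median -0.62), and 2 fell and 2 rose in controls (median -0.26). Fos, the early transcription factor, read -2.23, -2.14 and -1.79 at 3 weeks and -3.88, -4.53 and -3.25 at 6 weeks (3.57-fold lower, adjusted p = 0.0018). Its controls, at -4.22, -4.09 and -3.69, then -3.66, -4.06 and -3.27, were low at both ages (change 0.34), and the difference was not called (adjusted p = 0.23). Atf3, induced by stress, read -0.10, -1.57 and -0.55, then -2.56, -3.53 and -2.38 (adjusted p = 0.0044). Of 29 acute phase genes 8 rose and 1 fell (31.0% called, near the 27.0% of all genes), or 5 rose without 3-week mouse 3. Orm1, the plasma protein orosomucoid, read 1.96, 3.38 and 1.57, then 6.35, 6.46 and 6.69 (18.4-fold, adjusted p = 3.9e-05), and in controls 4.38, 3.98 and 3.69, then 6.36, 6.44 and 7.15. Of 34 cytokine and chemokine genes 2 rose and 5 fell (median -0.03). The share called, 20.6%, was under the 27.0% of all genes. Among those called, the chemokine Cxcl1 rose by 2.31 ± 0.36 and the receptor of the TWEAK cytokine Tnfrsf12a fell by 1.79 ± 0.33 on the log2 scale. Of 23 interferon genes 1 rose and 1 fell (median -0.28). That count hung on single mice: 9 fell without 3-week Cre mouse 1, and 5 rose without 3-week Cre mouse 2.

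Set against the controls over the same weeks, 1 of 17313 genes (0.00578%) changed differently in Cre livers after adjustment, and 1442 had an unadjusted p under 0.05. That gene was Kif2c, a motor protein that takes apart spindle microtubules. It read -4.39, -4.14 and -4.02 in the 3-week Cre livers and -3.31, -3.03 and -3.15 in the controls. At 6 weeks it read -5.77, -6.32 and -5.55 in Cre livers and -7.15, -6.79 and -7.39 in controls, and 0 of the 6 livers were well above background. The Cre livers were the lower group at 3 weeks, without overlap, and the 6-week values give no order. The fitted difference of the changes was 2.25 (limma, adjusted p = 0.033, and 0.0019 to 0.38 under other settings). This difference rests on these dim 6-week signals, so its size is not settled. In Cre livers the gene was 3.24-fold lower at 6 weeks, measured on the same dim signals and not a lower bound. Its promoter entry holds the CHR letters in reverse at position -103 (chr4:117178830-117178915, minus strand).
Kif2c: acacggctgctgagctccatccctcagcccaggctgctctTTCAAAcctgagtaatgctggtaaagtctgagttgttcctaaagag
Among the next genes by p-value were 3 further cell division genes, Parpbp, Cdca2 and Mad2l1, with changes of -1.61, -1.17 and -0.93 in Cre livers and -4.09, -2.47 and -2.27 in controls, each difference with adjusted p = 0.12 and not called. Parpbp was not well above background in any 6-week control. Aldh1a7, an aldehyde dehydrogenase, read 3.31, 3.53 and 3.44, then 5.91, 5.76 and 5.76, against 4.99, 4.63 and 5.48, then 5.64, 5.53 and 5.38, in controls (difference 1.90, adjusted p = 0.12). Its 3-week Cre livers were low and its 6-week ones slightly above the controls. The serpin Serpina5 was not well above background in 3-week Cre livers and was at least 5.97-fold higher at 6 weeks, with a change of -0.27 in controls. Without 6-week mouse 2 the difference was called for 25 genes, 6 of them in the cell cycle list; without 6-week control mouse 2 it was called for 6, without 3-week Cre mouse 2 for 3, and for 1 or none without any other mouse of 3 or 6 weeks.

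**Figure D5:**
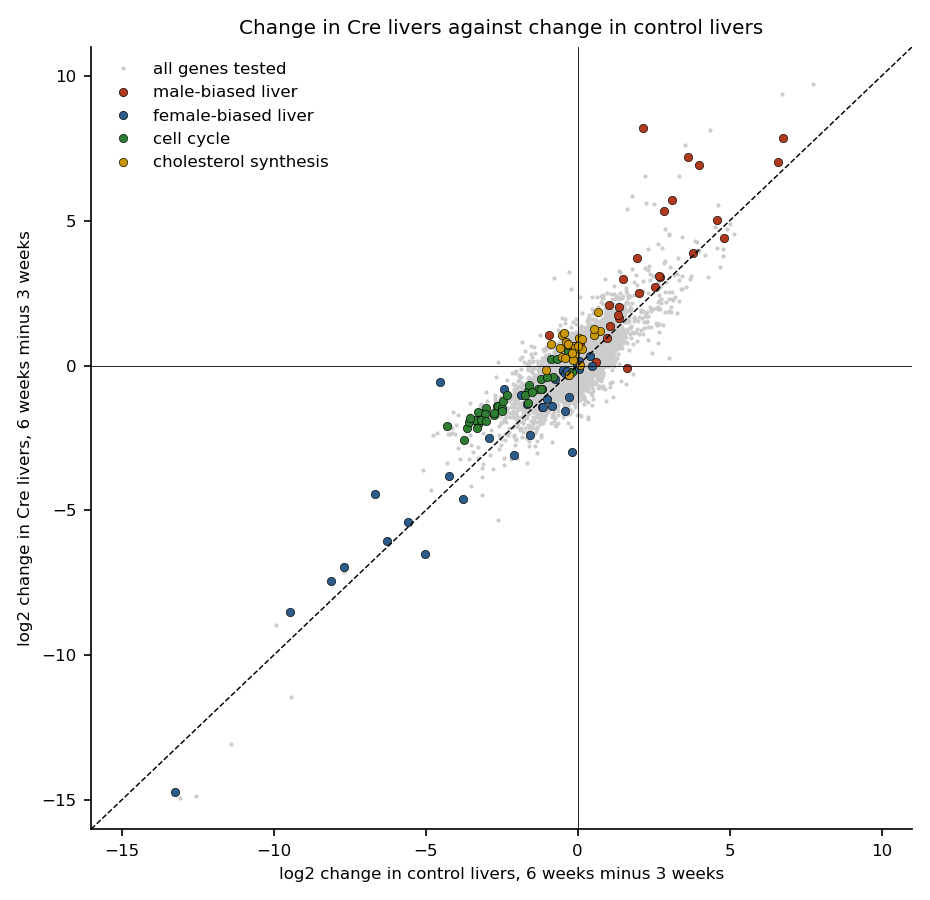
Log2 change from 3 to 6 weeks in Cre livers against the change in controls, for all 17313 genes (grey) and 4 gene lists (colours); the dashed line marks equal changes. Male-biased genes lie at the upper right and female-biased genes at the lower left, cell cycle genes lie above the line for 37 of 38 members and cholesterol synthesis genes for 23 of 25.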

How the data were processed

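RNA extracted with Trizol was labelled with Cy3 and hybridised to single-colour Agilent arrays of 62976 features, per the labels' protocols. The deposited files hold each array's intensity as the authors' scanner software wrote it (Agilent Feature Extraction 10.7.3.1, mm9, per the file headers), background-subtracted and not normalized between arrays. The deposited value table holds log2 values, used as an alternative; its scale was matched to the arrays (r = 0.9933 to 0.9978), its centring is unstated and its column medians were 7.70 to 7.90.

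Control spots and outlier spots were left out, log2 intensity was centred on each array's 75th percentile, and spots of a probe were averaged. Of 55681 probes, 26582 were named through RefSeq accessions (GRCm38.p6) and 29099 were not; a gene took its probe of highest mean and was tested where every array of at least 1 group read that probe as well above background. limma 3.58.1 (R 4.3.3) fitted 6 groups, with Benjamini-Hochberg adjustment over 17313 genes, and was checked on simulated data. "At least" folds set the bright group's mean against the lowest signal well above background on each array of the dim group, or the dim probe's own if higher. Where the probe's own signal was used, as for Kif2c, the fold is the measured one and not a bound. Replicates are separate mice, some of which share a date of birth or part of their title.

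The members, gene lists and rules were chosen with earlier results of these data known. Named were Cdh1, the 12 largest rises and 12 largest falls among called genes whose mice do not overlap, leaving out clone-type and pseudogene names (such as Serpina4-ps1), called members of each list (at most 6 by p, all for duct and matrix lists, or 2 by p where none was called), and the 8 smallest p-values of the difference; other genes are said to be picked or are defining markers. Alternatives were median centring, quantile normalization, normexp (offset 50, on the median signal, since the files give no mean signal), 3 filters, the mean of probes, unnamed probes, slide and litter blocks, array weights, the 6 arrays of each comparison alone, the value table, and each mouse left out. Litters (5) were read from the shared part of the titles, an inference; as a random block their consensus correlation was 0.096. Some genes that the rule would name are not reported here.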

Additional observations from a re-analysis of the deposited data

Results flagged for a closer look

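Kif2c, a spindle motor protein, was the gene whose change from 3 to 6 weeks differed between Cre and control livers by a test of the difference itself, with a difference of 2.25 on the log2 scale (limma, adjusted p = 0.033). It fell in both genotypes. None of the 6 livers of 6 weeks, Cre or control, was well above background for it, so the size of the difference is not settled and the order of the 6-week groups cannot be read. The Cre change, 3.24-fold lower, is measured on these dim signals and is not a lower bound. The gene's other probe changed by -2.11 in Cre livers.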

How the results depend on the processing

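Among the named genes other than Cdh1, whose change went to 0.00, no change turned its sign under any alternative; with a mouse left out, 3071 gene values kept their side of the threshold, 9 gained and 264 lost a call, and under the other settings 2524 kept it, 3 gained and 161 lost it. With a mouse left out, the Cre calls ranged from 3078 to 4763 genes (1618 to 2505 higher, 1449 to 2340 lower), the control calls from 2577 to 4268, and the change of Cdh1 from -0.98 to 0.00. Duct genes called higher ranged from 2 to 5, called lower from 1 to 3, and their median from -0.01 to 0.37; matrix genes called higher ranged from 3 to 5, called lower from 22 to 35, and their median from -0.81 to -0.54. Fitted on the 6 Cre arrays alone, with fewer arrays to estimate the spread, 2080 genes were called (1081 higher, 999 lower; 5392 at an unadjusted p under 0.05), with 2 duct genes higher and 0 lower and 2 matrix genes higher and 16 lower. With unnamed probes included 7998 features were called (4425 higher, 3573 lower) and 7550 in controls, out of 43227 tested. Quantile normalization called 3 duct genes higher. The difference between genotypes was called by limma for 0 to 25 genes with a mouse left out, 2 with litter as a random block, 3 with median centring, and 0 with quantile normalization, normexp, the value table, the mean of a gene's probes, no filter, the filter on all 16 arrays, the 4 groups of 3 and 6 weeks alone or unnamed probes, where 1243 to 1552 genes (3006 with unnamed probes) had an unadjusted p under 0.05; the cause was not tested. No paired analysis was possible because each mouse gave 1 liver and mouse numbers here follow accession order; the inferred litters hold both genotypes, none spans 3 and 6 weeks, and with litter as a random block 4371 genes were called in Cre livers. Dim probes limit the values given as "at least".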

Other observations

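Several smaller lists that the report does not describe also held called genes in Cre livers, beside 27.0% of all genes. The share called was 36.8% for YAP targets, 21.7% for Wnt genes, 20.0% for motile cilia genes and 5.0% for general hepatocyte genes. Only the YAP list was thus above the share for all genes. Of 19 genes counted as YAP targets or partners, 6 fell and 1 rose (median -0.23), and in controls 4 fell. Nt5e, the enzyme CD73 that makes adenosine at the cell surface, read 2.77, 2.49 and 2.62 at 3 weeks and -0.64, -0.67 and 0.54 at 6 weeks (7.39-fold lower, adjusted p = 0.0015), and Tead2, a transcription factor partner of YAP, fell by 0.90 ± 0.16 on the log2 scale. Ccn2, a secreted matricellular protein, read 2.77, 3.33 and 2.53, then 0.97, 1.47 and 2.44 (adjusted p = 0.031, lost when any 1 of 4 Cre mice was left out).

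Of 23 Wnt ligands and regulators, 4 fell and 1 rose (median -0.02). Rspo3, the R-spondin that endothelial cells of the central vein secrete, read 0.43, 0.50 and 0.32, then -0.48, -0.52 and -0.63, with little spread in either group (-0.96 ± 0.14, adjusted p = 0.00061), and its change in controls was -0.85. Of 15 motile cilia genes, 1 rose and 2 fell. Dnah11, a dynein heavy chain of cilia, rose from -4.83, -4.63 and -5.05 to -3.11, -2.37 and -3.47 (3.61-fold, adjusted p = 0.0033) and by 2.27 in controls. Of 20 general hepatocyte genes 1 changed: Cebpa, a transcription factor of hepatocyte identity, rose from 3.36, 3.8 and 3.28 to 4.37, 4.47 and 4.20 (0.86 ± 0.16, adjusted p = 0.0027).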
